A study of Penicillium oxalicum with 10 samples.

Results

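The transcripts described here are those of 5 genes for starch breakdown in the mould Penicillium oxalicum, out of 9859 genes in the deposited table. The 5 genes were chosen by gene identifier and annotation, with earlier results of these data known. They are the alpha-amylase Amy13A (PDE_01201), the glucoamylase Amy15A (PDE_09417) and 3 genes annotated as putative alpha-glucosidases, PDE_03966, PDE_00400 and PDE_02648. The orthology text of the table names the same enzyme as the product text for all but PDE_02648, which has no orthology entry. The table annotates 13 amylolytic genes in all, and the other 8 are described after the members.

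Starch is a polymer of glucose that filamentous fungi break down outside the cell. Alpha-amylase cuts within the chains, glucoamylase releases glucose from the chain ends, and alpha-glucosidase splits maltose and other short oligosaccharides into glucose. In Aspergillus the genes of these secreted enzymes are switched on in the presence of starch or maltose by the activator AmyR, and on glucose they are held down by the repressor CreA.

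Each genotype is 1 RNA library from mycelium, 10 libraries in all. The wild type is strain M12, and each of the others is a strain labelled as the deletion of 1 gene: wetA, abaA, stuA, swi6, flbA, flbB, flbC, flbD or flbE. In Aspergillus most of these genes act in asexual sporulation (conidiation). Cultures started from conidia had 20 h of pre-culture at 30 °C in a modified Czapek medium that held 2% glucose, and the mycelium was then kept for 48 h in fresh medium, whose carbon source the labels do not name. The labels state neither the parent strain of the deletions nor how many transformants were kept. With a single library per genotype, neither a replicate error nor a test can be given. The 95% intervals given here come from read counts, cover counting error only, and leave out the spread between cultures. In bulk RNA, fewer cells that make a transcript and less of it per cell cannot be told apart.

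Depth was 3.10 megareads in the flbA deletion library and 4.44 to 7.60 megareads in the other 9. A gene annotated as FlbD (PDE_03008) had 327 RPKM (reads scaled to gene length in kilobases and to the library's read total) in the library labelled flbD deletion against 341 RPKM in wild type. A gene of the TEA family of AbaA (PDE_02932) had 59.1 RPKM in the library labelled abaA deletion against 28.5 RPKM in wild type. These levels go against the labels, so values for both libraries hold for them as labelled only. The families of StuA (PDE_04095) and of fission yeast Swi6 (PDE_08896) each had a gene with 1 read in the matching deletion library. The pairings by family were made with the values known. The gene with the most reads, PDE_06605, which has no product name, took 27.9% of reads in the flbA deletion library and 7.73% in wild type. The median gene was shifted against wild type by between -0.64 (flbA) and 0.12 (flbC) on the log2(RPKM + 1) scale.

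By deposited RPKM all 5 transcripts were most abundant in wild type. When libraries were scaled by the median of gene ratios, PDE_00400 was slightly higher in the flbE deletion library (by 0.28 on the log2(RPKM + 1) scale). The share of all genes that were highest in wild type is not given here. In wild type the members ranked 43rd (Amy15A), 66th (Amy13A), 134th (PDE_00400), 352nd (PDE_03966) and 4075th (PDE_02648) among all genes by RPKM. Together they took 0.881% of the wild-type reads (95% Wilson interval 0.873 to 0.889), against 0.0328% (0.0309 to 0.0349) in the flbA deletion library and 0.0737% to 0.457% in the other deletion libraries. The level of each gene, the order of the libraries and the members' share of reads differed from gene to gene and from strain to strain, as set out below.

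**Figure D1:**
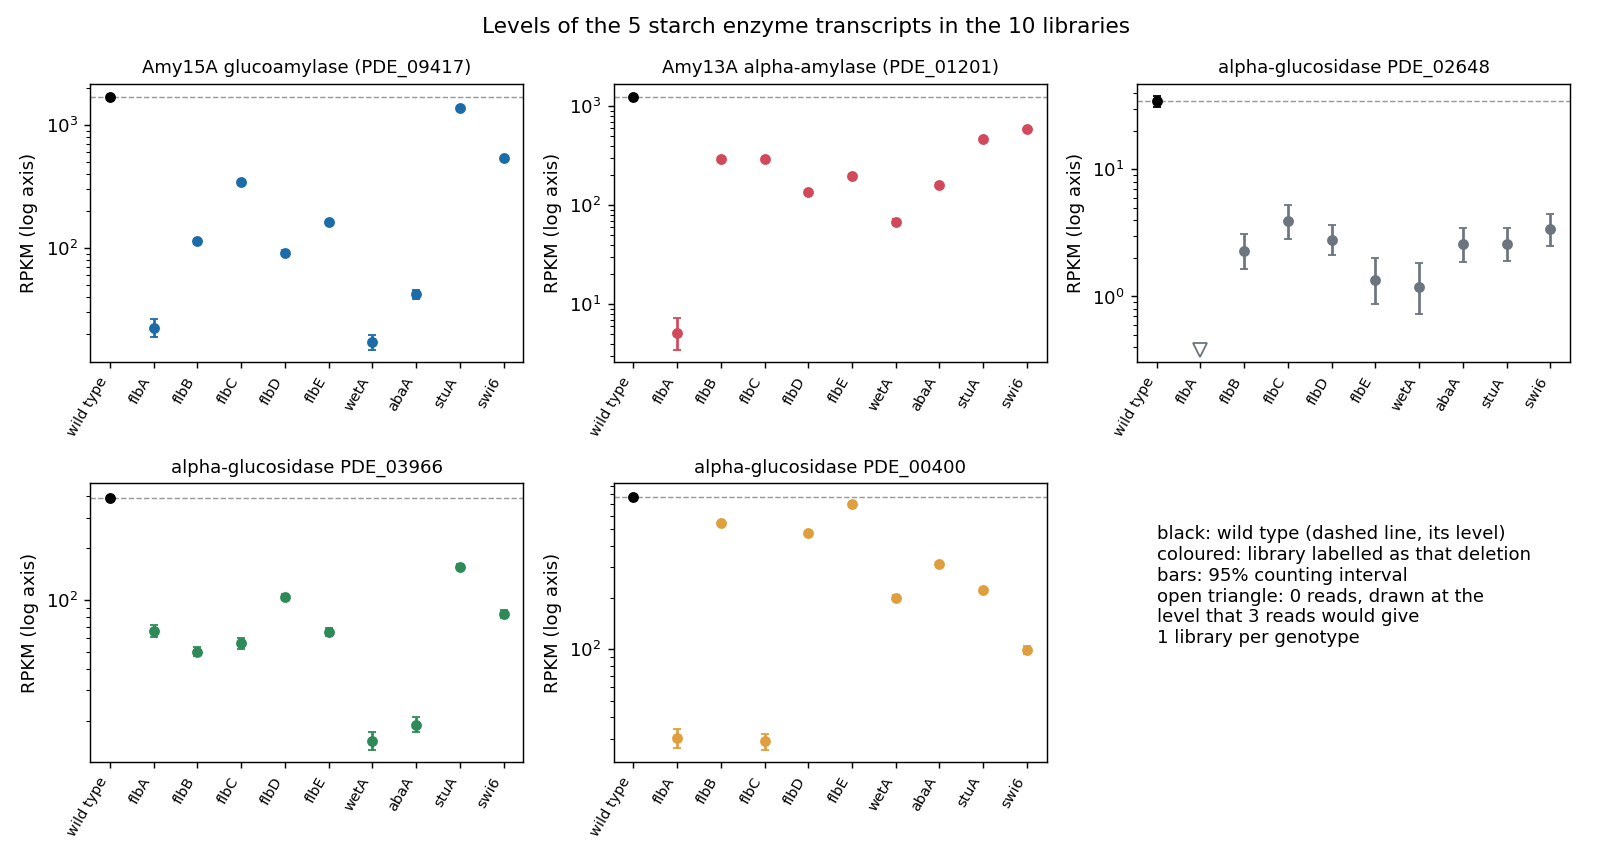
Level of each of the 5 transcripts in RPKM (log axis, 1 panel per gene) in the wild-type library (black) and the 9 deletion libraries (coloured), with 95% counting intervals. Wild type is the highest point in every panel, and PDE_00400 in the flbE deletion library (708 RPKM) and Amy15A in the stuA deletion library (1384 RPKM) lie nearest to it.

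Amy13A, the enzyme that cuts inside the starch chain, had 1237 RPKM in wild type. In the deletion libraries it had 585 RPKM (swi6), 467 RPKM (stuA), 296 RPKM (flbB), 293 RPKM (flbC), 198 RPKM (flbE), 159.5 RPKM (labelled abaA), 135 RPKM (labelled flbD), 67.1 RPKM (wetA) and 5.14 RPKM (flbA). The flbA deletion library stood far below the rest, with 30 reads that covered 53.8% of the gene. Amy13A was 241-fold lower there than in wild type (169 to 357), or 146-fold when libraries were scaled by the median of gene ratios. In that order the wetA deletion library came next above flbA at a level 13.1-fold higher (9.08 to 19.5). The flbB and flbC libraries differed by less than counting error, with a ratio of 1.01 (0.961 to 1.06), and every other adjacent pair lay outside it. The smallest difference from wild type was that of the swi6 deletion library, 2.11-fold lower (2.05 to 2.18), which became 1.85-fold with the median-of-ratios scaling and so no longer reached 2-fold.

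Amy15A, which frees glucose from chain ends, was the most abundant member in wild type with 1681 RPKM. Its levels in the deletion libraries were 1384 RPKM (stuA), 538 RPKM (swi6), 344 RPKM (flbC), 163 RPKM (flbE), 113 RPKM (flbB), 91.7 RPKM (labelled flbD), 41.9 RPKM (labelled abaA), 22.5 RPKM (flbA) and 17.0 RPKM (wetA). The stuA deletion library was close to wild type, 1.21-fold lower (1.19 to 1.24), and the wetA deletion library was farthest from it, 98.7-fold lower (86.2 to 113). In the wetA deletion library 36 of the 9134 genes compared had a lower difference from wild type than Amy15A. The flbA deletion library was 74.8-fold lower (63.1 to 89.5), or 45.3-fold with median-of-ratios scaling. Of the 45 pairs of libraries, 45 differed in Amy15A by more than counting error, and in 36 pairs the whole interval lay past 2-fold.

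The alpha-glucosidases, which finish the release of glucose from short chains, were each below Amy15A and Amy13A in the wild-type library, and ordered the libraries differently. PDE_03966 had 391 RPKM in wild type. Deletion libraries gave 156 RPKM (stuA), 105 RPKM (labelled flbD), 83.4 RPKM (swi6), 66.3 RPKM (flbA), 65.2 RPKM (flbE), 56.3 RPKM (flbC), 50.1 RPKM (flbB), 19.0 RPKM (labelled abaA) and 15.3 RPKM (wetA). The lowest levels of PDE_03966 were thus in the wetA deletion library, 25.6-fold below wild type (22.8 to 28.9), and in the library labelled abaA deletion, 20.6-fold below (18.6 to 22.9). The flbA deletion library, which held the lowest or next-to-lowest level of every other member, ranked in the middle for PDE_03966, at 5.90-fold lower (5.43 to 6.43), or 3.57-fold with median-of-ratios scaling. The flbA and flbE libraries differed in it by less than counting error.

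PDE_00400 had 768 RPKM in wild type. Deletion libraries gave 708 RPKM (flbE), 543 RPKM (flbB), 479 RPKM (labelled flbD), 316 RPKM (labelled abaA), 220.4 RPKM (stuA), 200.3 RPKM (wetA), 98.6 RPKM (swi6), 30.2 RPKM (flbA) and 29.0 RPKM (flbC). In the first 3 of these deletion libraries the transcript was less than 2-fold below wild type, by 1.08-fold (1.06 to 1.11), 1.41-fold (1.38 to 1.45) and 1.60-fold (1.56 to 1.65). The flbE value turned to slightly above wild type, by 0.28 on the log2(RPKM + 1) scale, when libraries were scaled by the median of gene ratios. At the other end, PDE_00400 was 26.5-fold lower in the flbC (23.8 to 29.6) and 25.4-fold lower in the flbA deletion library (22.4 to 28.9; 15.4-fold with median-of-ratios scaling), and those libraries differed by less than counting error.

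PDE_02648 was a weakly expressed gene with 34.2 RPKM (31.1 to 37.5) in wild type, from 448 reads that covered 99.5% of its length. Where reads were present in a deletion library, they gave 3.90 RPKM (flbC), 3.37 RPKM (swi6), 2.80 RPKM (labelled flbD), 2.60 RPKM (stuA), 2.57 RPKM (labelled abaA), 2.28 RPKM (flbB), 1.35 RPKM (flbE) and 1.19 RPKM (wetA). The flbA deletion library had 0 reads, and 3 reads there would be worth 0.380 RPKM. All 9 deletion libraries were therefore far below wild type, by 8.78-fold in the flbC (6.44 to 12.3) to 28.8-fold in the wetA deletion library (18.4 to 47.5), and at least 90.0-fold in the flbA deletion library. Among the deletion libraries, 7 adjacent pairs in the order were within counting error at 20 to 54 reads per library, so neighbours in the order were not resolved at this depth. Of all 28 pairs among these 8 libraries, 12 differed by more than counting error.

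Against wild type, counted at 2-fold on the log2(RPKM + 1) scale, 41 of the 45 combinations of a member and a deletion library were lower and 0 were higher. Of all 9134 genes compared, 18.1% of such combinations were lower and 12.5% higher. The 4 exceptions were Amy15A in the stuA deletion library and PDE_00400 in the flbB, flbE and labelled flbD libraries. All 5 members were at least 2-fold lower in the flbA deletion library, where 37.4% of all genes compared were lower, in the flbC (8.85% lower), wetA (20.9% lower), labelled abaA (12.3% lower) and swi6 deletion libraries (11.9% lower). In the flbB (23.0% lower), flbE (21.2% lower), labelled flbD (12.7% lower) and stuA deletion libraries (14.6% lower) 4 members were lower. Amy13A, PDE_02648 and PDE_03966 were at least 2-fold lower in all 9 deletion libraries, as were 2.23% of all genes compared. The 9 differences share the single wild-type library, and the members were chosen with earlier results of these data known.

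The median difference over the 5 members ran from -1.40 in the stuA to -5.14 in the flbA deletion library on the log2(RPKM + 1) scale, where the median of all genes was -0.15 and -0.64. Between these lay wetA (-4.18), labelled abaA (-3.30), labelled flbD (-3.18), flbB (-2.94), flbC (-2.78), flbE (-2.64) and swi6 (-2.22). The member with the lowest difference varied by strain. Relative to the median gene, Amy15A was lowest in the flbB (-3.48), labelled flbD (-3.98), labelled abaA (-5.32) and wetA deletion libraries (-6.28), PDE_00400 in the flbC (-4.80) and PDE_02648 in the stuA deletion library (-3.14). In the flbB deletion library without a pseudocount, PDE_02648 was 14.98-fold lower (10.8 to 21.3) and Amy15A 14.87-fold lower (14.1 to 15.7), with overlapping intervals. In the flbA, flbE and swi6 deletion libraries the lowest member depended on which pseudocount was used. With 1 it was Amy13A in the flbA (-7.02) and PDE_02648 in the flbE (-3.50) and swi6 deletion libraries (-2.88). With a pseudocount of 0.1 it was PDE_02648 in the flbA deletion library, and with 5 it was Amy15A in the flbE and PDE_00400 in the swi6 deletion library.

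**Figure D2:**
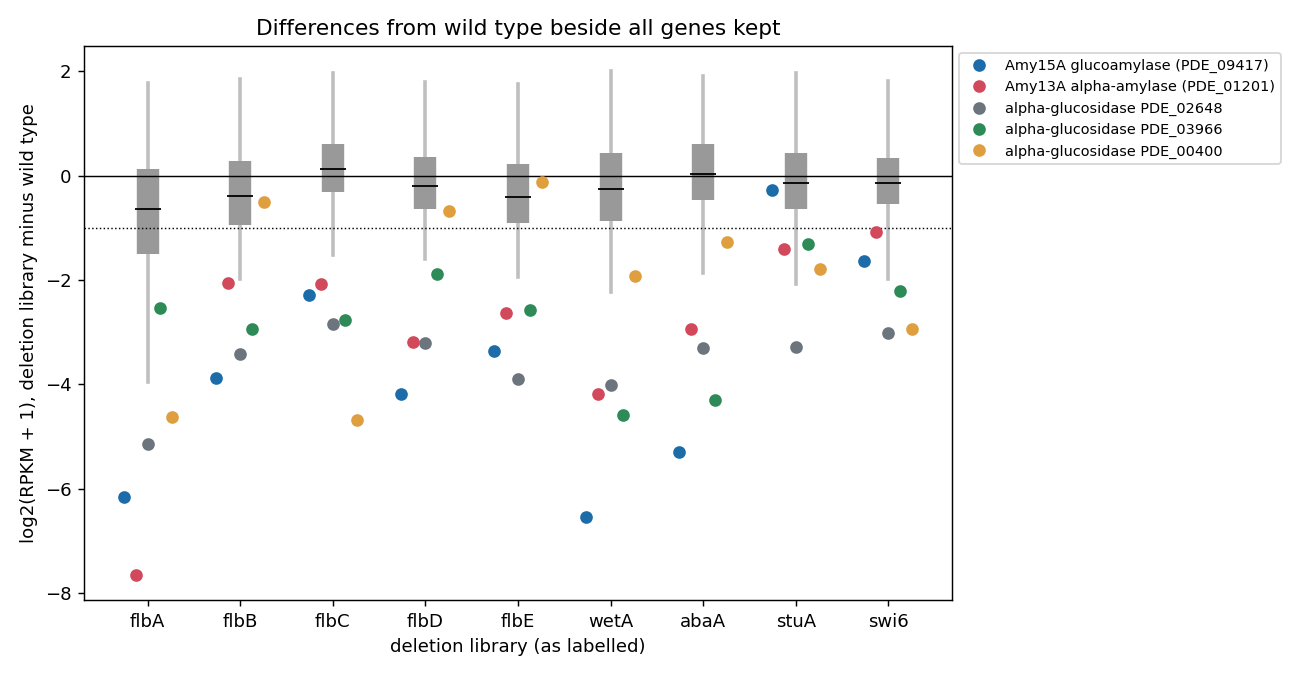
Difference of each member from wild type in log2(RPKM + 1), by deletion library as labelled. Grey bars span the middle of all 9134 genes (thick bar, quartiles; thin bar, the 5th to 95th percentile; black dash, median). The members lie below the 0 line throughout, most of them under the grey bars, and PDE_00400 (orange) lies near 0 in the flbB, flbD and flbE libraries.

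The balance between the members differed among strains by more than counting error. Amy15A was 1.36 times the level of Amy13A in wild type (1.33 to 1.39) and 2.96 times in the stuA deletion library (2.88 to 3.05). In the flbA deletion library the ratio was 4.37, with a wide interval (2.92 to 6.73), since Amy13A had few reads there. It was nearer to 1 in the flbC (1.17, 1.11 to 1.24), swi6 (0.919, 0.887 to 0.953) and flbE deletion libraries (0.823, 0.778 to 0.870). In the swi6 and flbE libraries Amy15A was thus below Amy13A by more than counting error. Amy15A lay further below Amy13A in the library labelled flbD deletion (0.677), in the flbB (0.381) and wetA deletion libraries (0.254) and in the library labelled abaA deletion (0.262).

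The ratio of the alpha-glucosidase PDE_00400 to Amy15A separated the strains more widely. It was 0.457 in wild type (0.445 to 0.468). PDE_00400 exceeded Amy15A by 4.80-fold in the flbB, 5.22-fold in the labelled flbD, 4.34-fold in the flbE, 11.8-fold in the wetA and 7.55-fold in the labelled abaA deletion library. In the opposite direction 3 deletion libraries had ratios below that of wild type, 0.0843 (flbC), 0.159 (stuA) and 0.183 (swi6). The flbA deletion library had a ratio of 1.34 (1.08 to 1.67). Within-library ratios do not depend on how libraries are scaled.

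**Figure D3:**
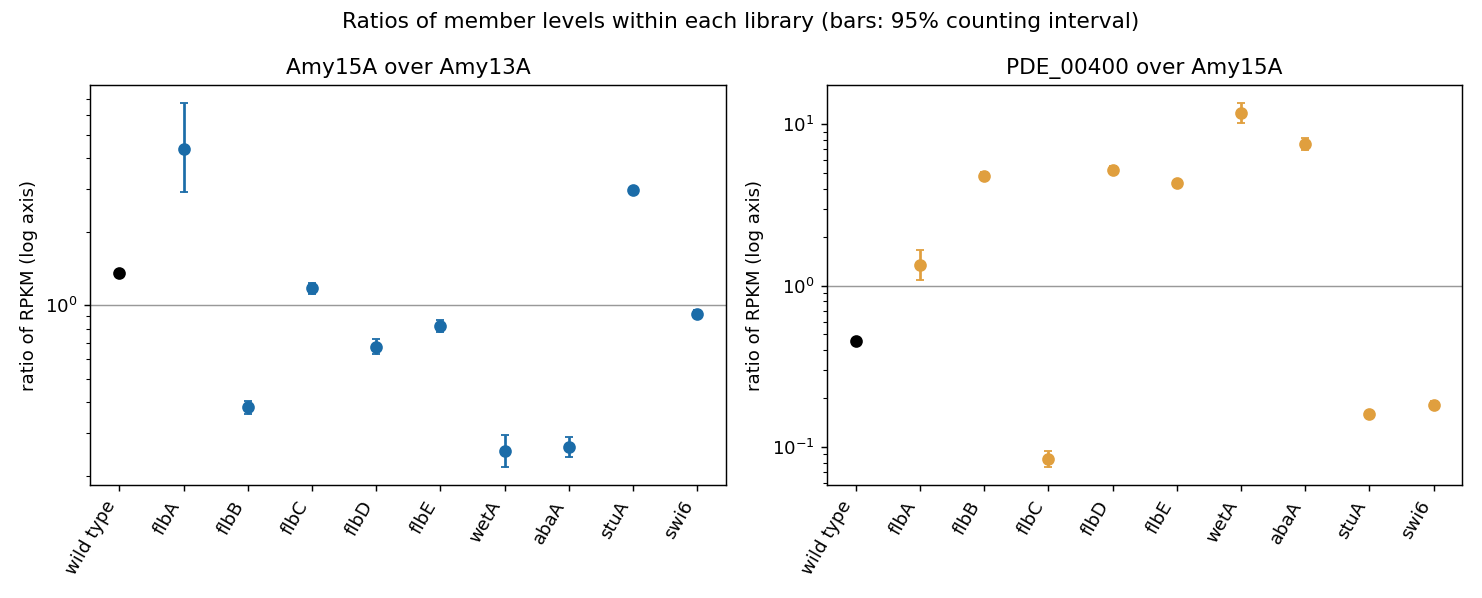
Ratio of RPKM between members within each library on log axes, with 95% counting intervals: Amy15A over Amy13A (left) and PDE_00400 over Amy15A (right). On the right the flbB, flbD, flbE, wetA and abaA libraries lie between 4.34 and 11.8, and the flbC, stuA and swi6 libraries between 0.0843 and 0.183.

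The makeup of the members' transcripts differed accordingly. Of the summed RPKM of the 5 genes (4111 RPKM in wild type), PDE_00400 accounted for 18.7% in wild type but 54.0% in the flbB, 58.9% in the labelled flbD, 62.3% in the flbE, 66.6% in the wetA and 58.6% in the labelled abaA deletion library. Amy15A accounted for 40.9% in wild type and 62.0% in the stuA deletion library, where the sum was 2231 RPKM. In the flbA deletion library, where the sum was 124 RPKM, PDE_03966 accounted for 53.4%. Amy15A and Amy13A together held most of the sum in the flbC (47.4% and 40.4%) and swi6 deletion libraries (41.1% and 44.7%).

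**Figure D4:**
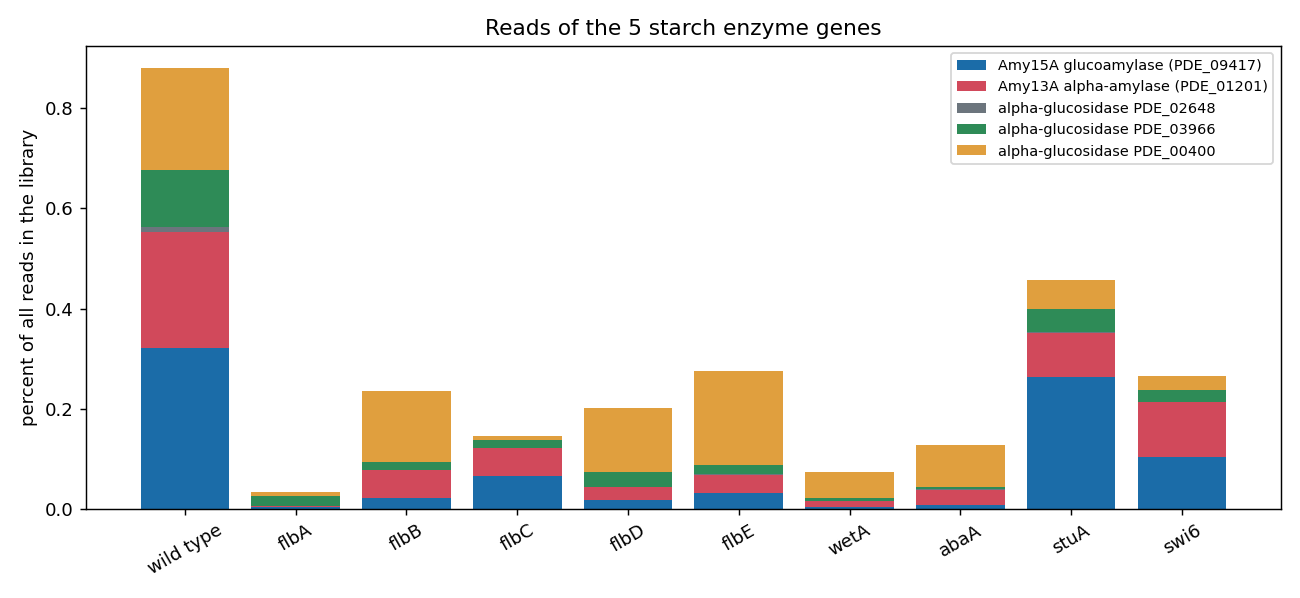
Percent of all reads in each library that belong to the 5 genes, stacked by gene. The wild-type bar reaches 0.881%, the stuA bar 0.457% and the flbA bar 0.0328%, and PDE_00400 (orange) forms the larger part of the bar in the flbB, flbD, flbE, wetA and abaA libraries.

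Across the 10 libraries, Amy15A and Amy13A varied together on the log2(RPKM + 1) scale, with Pearson's r of 0.82 and Spearman's rho of 0.93 (r of 0.77 over the 9 deletion libraries). Amy15A and PDE_03966 had an r of 0.81 (0.72 without wild type), and Amy13A and PDE_02648 had an r of 0.80 (0.90 without wild type). The 0.90 leans on the flbA deletion library, the lowest for both, with 0 reads of PDE_02648 and 30 of Amy13A. In the other deletion libraries PDE_02648 spanned only 1.19 to 3.90 RPKM. The r of PDE_00400 with the other members ran from 0.19 with Amy15A to 0.48 with Amy13A, and Amy13A with PDE_03966 had a like value of 0.47. Without wild type, PDE_00400 had an r of -0.01 with Amy15A, -0.05 with PDE_03966 and 0.37 with Amy13A, while PDE_03966 had 0.25 with Amy13A and 0.16 with PDE_02648. These correlations are descriptions over libraries that share sequencing and scaling, and the read depth of PDE_02648 adds counting error to its values.

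Of the other 8 annotated amylolytic genes, 20 of 72 combinations of gene and deletion library were lower (27.8%), and 0 of the 8 was lower in all 9 libraries. On the same deposited RPKM scale, 18.1% of combinations over all genes were lower, and 2.23% of genes were lower in all 9. With median-of-ratios scaling 13 combinations were lower and 4 higher, in place of 20 and 1. Whether the members differ from these genes was not tested. A further putative glucoamylase, PDE_05527, stood at 161 RPKM in wild type, and at 160.3 to 275 RPKM in 7 deletion libraries. With median-of-ratios scaling PDE_05527 was past 2-fold higher in the flbB (1.06) and flbE deletion libraries (1.17 on the log2(RPKM + 1) scale). Its level was 2.44 RPKM in the flbA deletion library, 66.0-fold lower (39.2 to 121), and 49.8 RPKM in the stuA deletion library, 3.23-fold lower (2.95 to 3.54). In the stuA deletion library the glucoamylase genes thus differed from each other, with Amy15A 1.21-fold lower.

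The putative alpha-glucosidase PDE_04151 had 187 RPKM in wild type and was past 2-fold lower in 6 deletion libraries, from 2.43-fold (2.24 to 2.63) in the labelled abaA to 23.4-fold (17.3 to 32.5) in the flbA deletion library, where 43 reads were counted. Its level was near that of wild type with swi6 deleted (182 RPKM) and with flbC deleted (147 RPKM). With median-of-ratios scaling it passed 2-fold in 4 libraries. PDE_01756, a putative alpha-glucosidase by its product text, carries an orthology text for another enzyme, a molybdopterin synthase subunit. Its 29.2 RPKM in wild type compared with 5.67 RPKM after flbA deletion, 5.14-fold lower (3.69 to 7.36). It passed 2-fold in 3 further libraries, flbB, wetA and swi6, and with median-of-ratios scaling in the flbA, flbC and swi6 libraries. The other 5 genes span a narrower range and comprise the alpha-amylases PDE_04684 and PDE_04683, the alpha-glucosidase PDE_03235, and the genes PDE_09505 and PDE_03542, whose orthology text names glucosidases that trim sugar chains on glycoproteins.

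**Figure D5:**
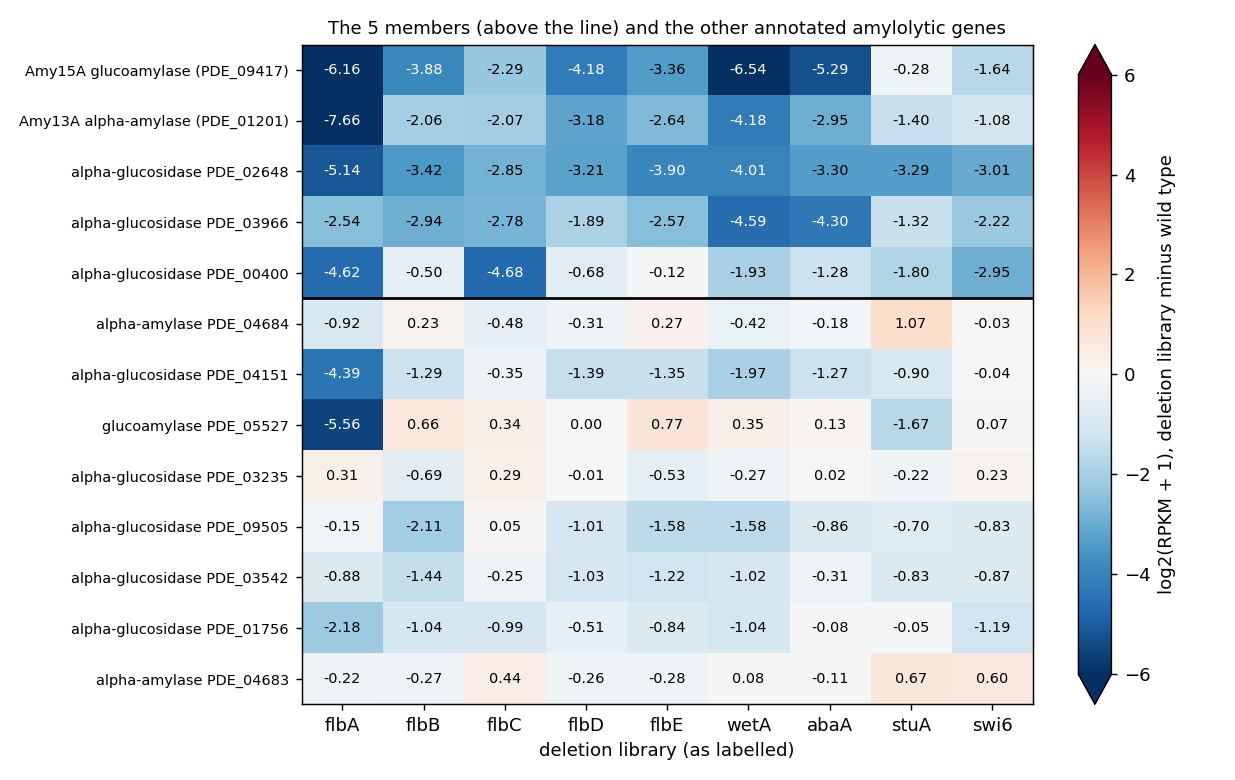
Difference from wild type in log2(RPKM + 1) for the 13 annotated amylolytic genes (rows, the 5 members above the line) in the 9 deletion libraries as labelled (columns). The value is printed in each cell, blue is lower and red higher. Cells past 2-fold lower number 41 of 45 above the line and 20 of 72 below it, beside 18.1% over all genes compared.

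Genes of glucose sensing and entry into glycolysis were read from annotation: CreA, CreB, a carbon catabolite-derepressing kinase, a TUP1-like protein and 5 hexokinases. For the 8 that passed the expression filter, 15 of 72 combinations of gene and deletion library were lower (20.8%) and 8 higher (11.1%) past 2-fold, or 11 and 11 with median-of-ratios scaling. The 20.8% and 11.1% were near the 18.1% and 12.5% over all genes, which are likewise on the deposited RPKM scale. CreA (PDE_03168), the glucose repressor, stood at 322 RPKM in wild type and at 143 RPKM (flbA), 283 RPKM (flbC), 387 RPKM (swi6) and 562 to 813 RPKM (the other 6) in the deletion libraries. Its highest level, in the flbE deletion library, was 2.52-fold above wild type (2.40 to 2.65), and the low value in the flbA deletion library was 2.25-fold below it (2.05 to 2.47), a difference that ended short of 2-fold with median-of-ratios scaling. CreA was past 2-fold higher in 3 deletion libraries by deposited RPKM and in 5 with median-of-ratios scaling. A gene annotated as hexokinase, PDE_03526, was the 1 gene of this list lower in all 9 deletion libraries under both scalings. Its level was 31.5 RPKM in wild type, 0.673 RPKM from 3 reads after flbA deletion, and 4.21 to 9.997 RPKM elsewhere. The most abundant hexokinase gene, PDE_00878, stood at 347 RPKM in wild type. It was 9.09-fold lower after flbA deletion (7.86 to 10.6), 2.15-fold lower after flbC deletion (2.01 to 2.30) and 2.17-fold lower after swi6 deletion (2.04 to 2.32), the last short of 2-fold with median-of-ratios scaling.

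Sugar uptake was read from 5 genes, of which PDE_08167 and PDE_04161 are annotated as carriers of nucleotide sugars. Past 2-fold, 2 of 45 combinations were lower (4.44%) and 15 higher (33.3%), beside the same 18.1% and 12.5% over all genes. With median-of-ratios scaling the counts were 0 and 19, a scale that the shares over all genes do not use. Of the 15 higher by deposited RPKM, PDE_00197 gave 7 and PDE_03140 gave 6, from 23 and 15 reads in wild type. PDE_04161 gave 2 higher and 1 lower, and PDE_02700 gave 1 lower. The symporter PDE_00197 was at 2.58 RPKM in wild type and was past 2-fold higher in 7 deletion libraries. Its levels there were 818 RPKM (flbB), 776 RPKM (flbE), 527 RPKM (wetA), 350.3 RPKM (labelled abaA), 181 RPKM (labelled flbD), 159.9 RPKM (stuA) and 19.4 RPKM (flbC), and with median-of-ratios scaling all 9 libraries passed 2-fold. The symporter PDE_03140 was at 1.73 RPKM in wild type, with 1074 RPKM (flbA) and 359.6 RPKM (stuA) at the top of the deletion libraries and 1.06 to 68.2 RPKM in the others. PDE_02700, linked to sugar uptake by its gene ontology text alone, ranged from 53.5 to 230.5 RPKM around a wild-type level of 152.5 RPKM. PDE_04161 ranged from 20.5 RPKM (stuA) to 121 RPKM (flbC) against 42.2 RPKM, and PDE_08167 from 23.3 to 42.3 RPKM against 33.3 RPKM.

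Glycogen is the fungal storage polymer with the same linkages as starch, and trehalose is a storage and stress disaccharide. Of 19 genes matched to them by annotation text 18 passed the filter. These include PDE_01031, annotated as glycogen synthase kinase 3 beta, which gave 2 of the higher combinations counted next. Past 2-fold, 12 of 162 combinations of gene and deletion library were lower (7.41%) and 23 higher (14.2%), beside 18.1% and 12.5% over all genes. With median-of-ratios scaling the counts were 8 and 31, again a scale that the shares over all genes do not use. A putative trehalase (PDE_01403), which splits trehalose into glucose, had 23.0 RPKM in wild type. It was higher past 2-fold in the 8 deletion libraries other than flbA, from 58.8 RPKM in the labelled abaA to 276 RPKM in the flbE deletion library, 12.04-fold above wild type (10.9 to 13.4). After flbA deletion it stood at 35.4 RPKM, and with median-of-ratios scaling it passed 2-fold there too. Of the trehalose phosphate synthases, PDE_01411 had 82.0 RPKM in the flbA deletion library against 2.39 RPKM in wild type (34.3-fold higher, 21.1 to 59.5) and at most 7.01 RPKM elsewhere. PDE_05219 was highest after flbB deletion (199.7 RPKM) and lowest after flbA deletion (14.6 RPKM), against 63.7 RPKM in wild type. Among the other synthases, PDE_00891 (49.4 RPKM in wild type) was past 2-fold higher in 6 deletion libraries and PDE_08181 in 1. Neither was past 2-fold lower in any, and PDE_01521 did not pass 2-fold.

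Among the 7187 genes with a mean of at least 10 RPKM, those most like Amy13A over the 10 libraries were PDE_00872 (r = 0.98) and PDE_04913 (0.98), both without a product name, and the alpha-glucosidase PDE_04151 (0.97). PDE_00872 ranged from 1.17 to 18.7 RPKM in the deletion libraries against 26.7 RPKM in wild type. Amy15A was most like an aldehyde dehydrogenase gene (PDE_01786, 0.93), an unnamed gene (PDE_08570, 0.93) and a gene annotated as RNA polymerase II elongation factor ELL (PDE_03932, 0.92). PDE_02648 was most like PDE_00790 (0.97) and PDE_00789 (0.96), which carry consecutive locus numbers, and PDE_04773 (0.96), annotated as an amidotransferase subunit. Without the wild-type library these values were 0.87, 0.85 and 0.82, and Spearman's rho with PDE_00790 was 0.65. PDE_00790 ranged from 1.43 to 11.5 RPKM in the deletion libraries against 144 RPKM. The closest genes to PDE_03966 were the unnamed PDE_07199 (0.93), PDE_00881 (0.89) and PDE_08624 (0.88), and to PDE_00400 the unnamed PDE_02073 (0.94), PDE_06834 (0.93) and PDE_04642 (0.93). The values are Pearson's r of log2(RPKM + 1), and describe these libraries only.

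Conidiation genes also differed between wild type and the deletion libraries. The 8 genes listed are annotated as BrlA (PDE_00087 and PDE_00079), FlbD, 2 scytalone dehydratases, a tetrahydroxynaphthalene reductase and 2 polyketide synthases, and BrlA is the central activator of conidiation in Aspergillus. Their summed level was 2777 RPKM in wild type, and in the deletion libraries 13.1 RPKM (stuA), 28.6 RPKM (flbA), 129 RPKM (swi6) and 485 to 727 RPKM (the other 6). The wild-type sum leans on PDE_09236 (865 RPKM), PDE_09239 (651 RPKM) and PDE_09237 (204 RPKM), enzyme genes of this list with nearby locus numbers. These were at 0 to 3.21 RPKM in the flbB, flbE, wetA, labelled flbD and labelled abaA deletion libraries. RPKM was below wild type, by any amount, for all 8 in 8 deletion libraries and for 6 of 8 in the wetA deletion library, beside 42.1% (flbC) to 71.3% (flbA) of all genes compared. Some of these gaps were small, as for FlbD in the library labelled flbD deletion (327 against 341 RPKM). BrlA (PDE_00087) stood at 248 RPKM in wild type, and in the deletion libraries at 1.30 RPKM (stuA), 1.79 RPKM (swi6), 0.249 RPKM (flbA) and 70.8 to 107 RPKM (the other 6). In the flbA deletion library 5 of the 8 had 0 reads. Without FlbD, which alone had 524 RPKM in the wetA deletion library, the other 7 summed to 2435 RPKM in wild type, 0.951 RPKM (flbA), 4.92 RPKM (stuA), 66.6 RPKM (swi6) and 203 (wetA) to 408 RPKM (flbC) in the other 6. The part of conidiation in the levels of the 5 starch enzyme genes was not tested.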

How the data were processed

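RNA from mycelium was sequenced in 10 libraries. Per the file headers, the authors deposited for each gene and library the count of uniquely placed reads, the percent of the gene covered and the RPKM. CASAVA 1.8 appears in the submitters' processing notes. Not given in the sources used here are the aligner, the genome build, the annotation version and the use of strand. The counts summed to the header totals in all 10 libraries, and recomputing RPKM left a relative gap of at most 2.57e-08. A dash was read as 0. Lengths are coding lengths (9856 of 9859 are multiples of 3).

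The 5 genes and all lists were chosen with earlier results of these data known. Differences are deletion minus wild type in log2(RPKM + 1), over 9134 genes whose RPKM averaged 1 or more; the 5 members passed. Lower or higher means 2-fold or more on that scale. Levels and folds have exact 95% counting intervals (Poisson, and Clopper-Pearson conditional on the sum), and shares have Wilson intervals; reads carry no molecular identifiers. For a fold, a library with 0 reads was set to 3 reads. Median-of-ratios factors came from genes with reads in every library. The interval code was tested on simulated data. Python 3.11.15, NumPy 2.4.6, pandas 2.3.3 and SciPy 1.17.1 were used.

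Lists were text patterns in the annotation. Named were the members, the 3 genes most correlated with each, the 3 genes of each list with the widest range, all genes of a list of at most 5, locus neighbours within 3 and the gene with the most reads; other list genes were named after their values were seen. Alternatives were pseudocounts of 0.1 and 5, other filters and scalings, another reference and an interval wholly past 2-fold. The reference gene table, for strain HP7-1, matched 0 of the locus numbers, so coordinates and sequences were not used here.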

Additional observations from a re-analysis of the deposited data

How the results depend on the processing

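With pseudocounts of 0.1 and 5, no filter, a filter at a mean of 5 RPKM, totals without PDE_06605 and intervals wholly past 2-fold, every difference of a member kept its direction and its side of 2-fold (45 differences, or 44 for the interval, which needs reads in both libraries). Median-of-ratios scaling ended 1 call, Amy13A in the swi6 deletion library (-0.88), turned the uncalled PDE_00400 in the flbE deletion library to 0.28, and raised RPKM in the flbA deletion library by 0.73 on the log2 scale relative to wild type. In the pathway lists, where this scaling was added after the data were seen, other amylolytic combinations became 13 lower and 4 higher, and sugar uptake combinations became 0 lower in place of 2. Leaving PDE_06605 out of the totals moved the members' share of reads to 0.955% (wild type), 0.0455% (flbA), 0.162% (flbC) and 0.286% (swi6), by construction, since that gene leaves the denominator. Leaving out each deletion library in turn gave 3 to 4 members lower in all the rest, with 4 when the stuA deletion library was left out.

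When the reference was the median of the remaining 9 libraries, members highest in wild type lay above it in some deletion libraries by construction. Members lower by 2-fold then numbered 0 (flbB, flbE and stuA), 1 (flbC, labelled flbD and swi6), 2 (labelled abaA), 3 (wetA) and 4 (flbA), and members higher numbered 0 (flbA, wetA and labelled abaA), 1 (flbB, flbC, labelled flbD and flbE), 2 (swi6) and 3 (stuA). Of 45 differences 20 turned positive. For Amy15A these were 1.60 (flbC), 0.52 (flbE), 3.60 (stuA) and 2.24 (swi6). For Amy13A they were 0.58 (flbB), 0.56 (flbC), 1.23 (stuA) and 1.56 (swi6). For PDE_02648 they were 0.45 (flbC), 0.088 (labelled flbD), 0.012 (stuA) and 0.29 (swi6). For PDE_03966 they were 0.023 (flbA), 0.67 (labelled flbD), 1.25 (stuA) and 0.35 (swi6), and for PDE_00400 1.30 (flbB), 1.12 (labelled flbD), 1.68 (flbE) and 0.52 (labelled abaA). No paired analysis was possible because each genotype has 1 library. Depth limits PDE_02648 most.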

Other observations

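Among genes with locus numbers next to Amy13A, the unnamed PDE_01200 was past 2-fold lower in 7 deletion libraries, from 113 RPKM in wild type to 0.568 RPKM after flbA deletion, though not after swi6 deletion (123 RPKM), while PDE_01198 was past 2-fold higher in 7. Near PDE_00400, the unnamed PDE_00402 (38.9 RPKM in wild type) was past 2-fold lower in 7 deletion libraries, and PDE_00401, a putative chitin glucanosyltransferase, was higher in 3. Beside PDE_03966, the unnamed PDE_03964 compared at 115 RPKM in wild type with 30.3 RPKM after flbA deletion and 62.7 to 119 RPKM in the other 8, and PDE_03967 and PDE_03968 were past 2-fold lower in 4 each. The 6 neighbours of Amy15A were at 0.434 to 20.05 RPKM in wild type. The least abundant, PDE_09419, was past 2-fold higher in all 9 deletion libraries, as were 117 of the 9134 genes compared. Its wild-type level of 0.434 RPKM is too low for firm folds. Of the 6 neighbours of PDE_02648, 0 were past 2-fold lower in more than 2 libraries, and the unnamed PDE_02650 was the most abundant, with 4952 RPKM in wild type and 20314 RPKM after wetA deletion. Over all genes compared, 18.1% of combinations of gene and deletion library were lower and 12.5% higher. Locus numbers stand in for position here, and distances were not analysed.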
